A study of Homo sapiens with 6 samples.

Results

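The genes described here are 10 components of interleukin-6 (IL6) family signalling: the ligands IL6, IL11 and LIF, the receptor genes IL6R, IL6ST, OSMR and LIFR, the kinase JAK1, the transcription factor STAT3 and the feedback inhibitor SOCS3. They were listed by symbol, and all 10 were found among the 18417 genes measured, each through 1 probe set that names a single gene. RNA came from A549 cells, a human lung adenocarcinoma line, and was hybridised to Affymetrix arrays. Both groups were stable derivatives of this line, starved of serum overnight and then given VP-16 (etoposide, a topoisomerase II poison that breaks DNA) for 48 h. The 3 control arrays carry the genotype label control, and the other 3 carry the label H2AX knockdown, H2AX being the histone variant phosphorylated around DNA breaks. How many stable lines stand behind each group was not given in the sources used here, so the tests measure the spread between experiments on these cells. All arrays come from drug-treated cells, so the comparison is of the labelled genotypes under the drug.

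IL6 family cytokines bind receptors that share the signal-transducing subunit encoded by IL6ST. IL6 and IL11 first bind a receptor of their own and then pair the shared subunit with itself, while LIF and oncostatin M pair it with LIFR or OSMR. The bound receptors activate JAK kinases, chiefly JAK1, which phosphorylate STAT3, and STAT3 induces SOCS3, which blocks the receptor complex again. In lung epithelium and lung cancer cells the pathway is known for acute-phase and survival genes, and IL6 is a known component of the cytokine secretion that follows lasting DNA damage.

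The sequences before the start sites of IL6, IL11 and OSMR are shown because they set the cytokine with the largest difference beside a cytokine with almost none and a receptor whose groups did not overlap. Each is the 250 bases before the start in the RefSeq table of promoters (build GRCh38.p14), written 5′ to 3′ on the gene's strand: chr7:22726950-22727199 (+) for IL6, chr19:55370464-55370713 (-) for IL11 and chr5:38845762-38846011 (+) for OSMR. Capitals mark matches to 5 motifs searched on both strands: NF-kB as GGG and TTCC with any 3 bases between, STAT as TTCNNNGAA, C/EBP as TTGCNNAA, AP-1 as TGANTCA and the TATA box as TATAAA.
IL6: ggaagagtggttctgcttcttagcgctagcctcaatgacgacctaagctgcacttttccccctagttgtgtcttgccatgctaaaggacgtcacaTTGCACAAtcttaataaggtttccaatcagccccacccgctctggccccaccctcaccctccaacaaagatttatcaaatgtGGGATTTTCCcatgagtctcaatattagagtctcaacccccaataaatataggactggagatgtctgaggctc
IL11: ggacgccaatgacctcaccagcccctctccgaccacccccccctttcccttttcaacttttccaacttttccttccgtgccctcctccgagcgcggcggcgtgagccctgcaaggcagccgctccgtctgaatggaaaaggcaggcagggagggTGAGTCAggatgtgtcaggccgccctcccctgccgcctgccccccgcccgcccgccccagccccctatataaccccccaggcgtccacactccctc
OSMR: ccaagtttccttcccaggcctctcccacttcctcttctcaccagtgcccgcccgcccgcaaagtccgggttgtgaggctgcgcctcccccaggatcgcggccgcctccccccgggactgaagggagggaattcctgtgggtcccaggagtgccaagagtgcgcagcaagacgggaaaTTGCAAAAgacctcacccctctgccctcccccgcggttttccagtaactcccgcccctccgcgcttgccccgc

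The IL6 sequence held an NF-kB match, GGGATTTTCC, from 73 to 64 bases before the start, and a C/EBP match, TTGCACAA, from 155 to 148 bases before it. IL11 held an AP-1 match from 96 to 90 bases before its start and OSMR a C/EBP match, TTGCAAAA, from 73 to 66 bases before its own. Of 35116 promoters of the same length in the table, 5.67% held the NF-kB letters, 9.05% those of C/EBP, 6.57% those of AP-1 and 6.57% those of STAT. Entries were found for 9 of the 10 genes, with 14 start sites among them, and IL6 alone of the 9 matched the NF-kB letters. LIFR held further matches to the C/EBP and TATA letters. STAT letters were found at 2 of the 3 LIFR start sites, as TTCCTTGAA from 165 to 157 bases and TTCATCGAA from 182 to 174 bases before the start. The IL6 sequence was 47.6% G and C with 4 CpG, against 67.2% with 16 CpG for IL11 and 66.4% with 17 CpG for OSMR, and medians of 58.0% and 11 over all promoters. These matches describe letters in the windows and are not measurements of binding.

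None of the 10 genes passed the threshold over all genes, which 0.0326% of the genes tested did (limma, adjusted p under 0.05 after Benjamini-Hochberg adjustment, 6 of 18417), 0.0271% of them lower and 0.00543% higher. IL6 had the largest difference of the 10, at −0.82 on the log2 scale in the arrays labelled knockdown. OSMR, JAK1, IL6ST and STAT3 lay between −0.48 and −0.37, IL6R was at 0.29, and IL11, LIF, LIFR and SOCS3 lay within 0.07 of 0. With an unadjusted limma p under 0.05, 3 of the 10 genes were lower (IL6, JAK1 and OSMR) and 0 higher, where 8.38% of all genes were lower and 3.78% higher. The groups did not overlap for IL6, OSMR and JAK1, which were lower on every knockdown-labelled array, and for IL6R, which was higher. Over all genes 9.82% were lower and 7.17% higher without overlap. The difference was below 0 for 7 of the 10 genes and for 51.5% of all genes, but 6 of those 7 lie among the brightest genes, described next, of which 85.3% were below 0. The medians were −0.21 for the 10 genes and −0.01 for all, and that of the 10 was −0.13 without control replicate 1.

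**Figure D1:**
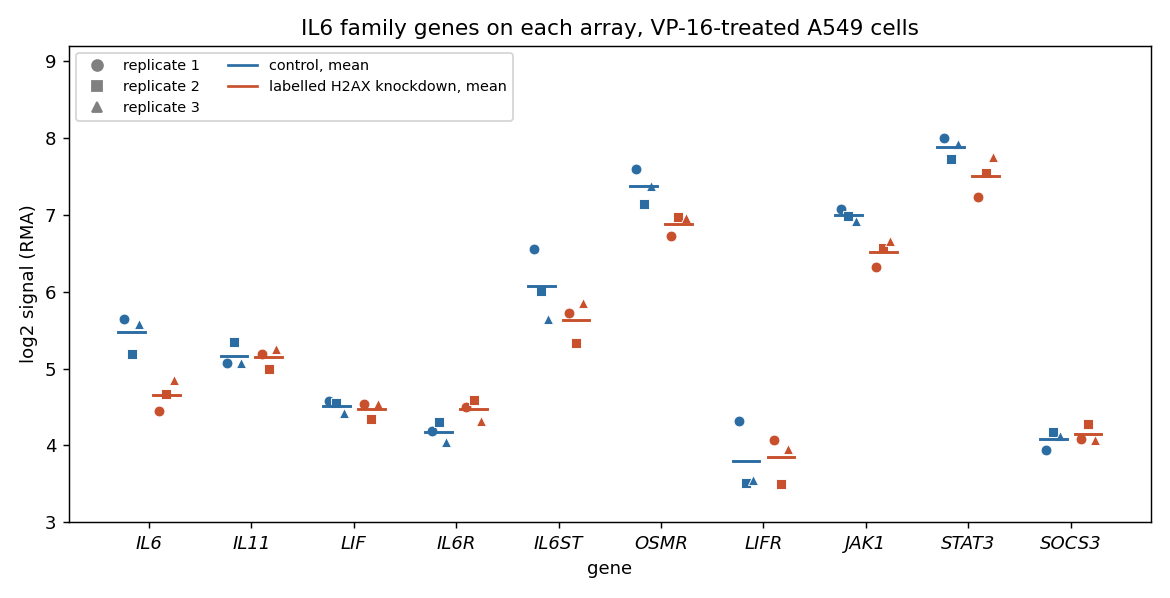
Log2 RMA signal (vertical axis) of the 10 IL6 family genes (horizontal axis) on each of the 3 control arrays (blue) and the 3 arrays labelled H2AX knockdown (red); marker shapes give the replicate number and bars the group means. The groups are separate for IL6, from 5.19 to 5.65 in control and 4.44 to 4.85 in the labelled knockdown, and intermixed for IL11, LIF, LIFR and SOCS3.

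Bright genes as a whole had lower mean signals in the labelled knockdown, and 6 of the 10 genes (IL6, IL11, IL6ST, OSMR, JAK1 and STAT3) lie in the brightest of 5 equal bins of genes by mean signal. The median difference of that bin was −0.25, and 22.9% of its genes were lower at an unadjusted p under 0.05, against 3 of these 6. The median was −0.10 in the bin that holds LIF and IL6R, and −0.01 in the bin that holds LIFR and SOCS3. Against the control mean, the median of the brightest bin was 0.14, −0.15 and 0.0062 on control replicates 1, 2 and 3, and −0.45, −0.15 and −0.13 on knockdown-labelled replicates 1, 2 and 3. Replicate 1 of the labelled knockdown lay clearly below the controls, while replicates 2 and 3 were level with control replicate 2. The part of this shift in the differences of single genes was not tested, but each gene is given below beside its bin and after quantile normalization, which gives all arrays 1 distribution. The probe set of H2AX read 5.21 ± 0.09 in control and 5.31 ± 0.16 in the labelled knockdown (log2 signal, SD, n = 3 each), a difference of 0.10 (limma adjusted p = 0.823). A 2-sided exact permutation test gave p = 0.4, where 0.1 is the smallest that 3 arrays a group allow. H2AX lies in the brightest bin, 0.35 above the median there, and was at 0.23 after quantile normalization and 0.28 after cyclic loess. It was not lower, so directions here are those of arrays labelled knockdown and not of a measured loss of H2AX.

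The cell type labelled was set against marker genes. The keratin genes KRT8, KRT18 and KRT7 read 9.69, 8.67 and 8.52 in control and 9.92, 8.44 and 8.29 in the labelled knockdown. KRT19 read 4.46 and 4.32, CDH1 5.59 and 5.47, and EPCAM, in the dimmest bin, 2.42 and 2.57. Over these 6 epithelial markers the mean level was 6.44 to 6.65 on the control arrays and 6.28 to 6.625 on the others. The leukocyte gene PTPRC read 2.07 and 2.19 and the T cell gene CD3E 2.15 and 2.26, both in the dimmest bin, while CD68, of lysosomes and macrophages, read 8.93 and 8.47. Over 7 blood cell markers the mean level was 3.73 to 3.87 on the control arrays and 3.71 to 3.81 on the others, and over 5 endothelial markers 2.80 to 2.96 and 2.83 to 3.01. All 8 fibroblast markers were above 0, with a median difference of 0.29 and a mean level of 3.06 to 3.25 on the control arrays and 3.28 to 3.66 on the others. DCN and LUM, which had the largest of these values (0.46 and 0.47), lie in the dimmest bin, whose median was 0.15. Only 18.3% of the genes in that bin were below 0, beside 51.5% of all genes. PDGFRA and THY1 lie in the next bin, with 36.1% below 0. COL1A2 (0.39), COL3A1 (0.15) and PDGFRB (0.34) lie in the bin of LIFR and SOCS3, with 51.3% below 0. COL1A1 (0.04) lies in the brightest bin, with 85.3% below 0. No marker read 0, and no gene could be called absent from these values. Whether these markers share in the differences below was not tested.

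Of the ligands, IL6 had the largest difference, and IL11 and LIF had values near 0 with intervals on both sides of it. IL6, the founding cytokine of the family (probe set 8131803, Entrez gene 3569), read 5.65, 5.19 and 5.59 in control replicates 1, 2 and 3, and 4.44, 4.67 and 4.85 in knockdown-labelled replicates 1, 2 and 3. Every knockdown-labelled array lay below every control array. The means were 5.48 ± 0.25 and 4.66 ± 0.21 (SD, n = 3 each), a signal 1.77-fold lower with a log2 difference of −0.82 (95% interval −1.21 to −0.43). The unadjusted limma p was 0.000572 and the adjusted p 0.192. The difference lay 0.57 below the median of its bin (−0.57), at percentile 0.814 of the differences there. That bin spans mean signals from 5.04 to 12.4, and IL6 lies at its dim end, at 5.07. The median of the next dimmer bin was −0.10. After quantile normalization the IL6 difference was −0.70 and after cyclic loess −0.67, with limma adjusted p of 0.381 and 0.334. With arrays weighted by their quality IL6 passed the threshold, at −0.87 and a limma adjusted p of 0.0197, when 155 genes were called lower and 36 higher. Its adjusted p ran from 0.0197 to 0.382 over the alternatives that kept all arrays, and from 0.120 to 0.928 with 1 array left out.

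IL11, a cytokine of stromal and epithelial repair (probe set 8039484, Entrez gene 3589), read 5.07, 5.34 and 5.07 in the controls and 5.19, 5.001 and 5.25 in the labelled knockdown. The 2 sets of values were interleaved. The difference of −0.01 had a 95% interval of −0.37 to 0.34, which as a change in signal is −22.4% to 26.5%. LIF, which sustains stem cells and acts in many tissues (probe set 8075310, Entrez gene 3976), read 4.58, 4.55 and 4.42 in the controls and 4.54, 4.34 and 4.54 in the labelled knockdown, a difference of −0.04 (95% interval −0.38 to 0.30). Limma adjusted p was 0.978 for IL11 and 0.931 for LIF. Both signs turned above 0 after quantile normalization (0.12 and 0.025). Whether IL6 differed from the other ligands in its response was not tested.

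Other ligands were described by a list of 8, of which 5 were measured, with 0 past the threshold and 0 at an unadjusted p under 0.05 in either direction. Their median difference was 0.06, with 1 below 0, and ran from 0.014 without knockdown-labelled replicate 2 to 0.16 without replicate 3. IL31, a cytokine of itch, read 2.43 ± 0.09 and 2.66 ± 0.09 (SD, n = 3 each) without overlap, in the dimmest bin where the median was 0.15. OSM, oncostatin M, which signals through OSMR, was at 0.23 with overlapping groups, and at 0.078 without control replicate 1. IL27 and EBI3, the subunits of interleukin-27, were at 0.06 and −0.05, the latter turning to 0.019 after quantile normalization. LIF and OSM are neighbours in the RefSeq gene order (GRCh38.p14), and neither passed the threshold.

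Of the receptor genes, IL6ST and OSMR had lower means in the knockdown-labelled arrays, IL6R had a higher one, and LIFR was near 0 at 0.05. None passed the threshold, and the groups overlapped for IL6ST and LIFR. OSMR, the specific chain of the oncostatin M receptor (probe set 8105040, Entrez gene 9180), read 7.59, 7.14 and 7.38 in the controls and 6.72, 6.97 and 6.96 in the labelled knockdown. The groups did not overlap, by a margin of control replicate 2 over knockdown-labelled replicate 2. The means were 7.37 ± 0.23 and 6.89 ± 0.14 (SD, n = 3 each), with a difference of −0.48 (95% interval −0.86 to −0.11; limma adjusted p = 0.327). The value was −0.23 relative to the median of its bin and −0.24 after quantile normalization, where the groups still did not overlap, with 7.33, 7.20 and 7.24 against 7.05, 7.02 and 6.97.

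IL6ST, the shared chain (probe set 8112139, Entrez gene 3572), read 6.55, 6.01 and 5.64 in the controls and 5.72, 5.34 and 5.85 in the labelled knockdown. Control replicate 1 was high and control replicate 3 lay inside the range of the labelled knockdown. The difference was −0.43 (95% interval −0.92 to 0.05; limma adjusted p = 0.453). It was −0.19 without control replicate 1 and −0.65 without control replicate 3, so its size rests on which control array is kept. After quantile normalization it was −0.23.

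IL6R, which binds IL6 on the cell surface (probe set 7905789, Entrez gene 3570), went the other way. It read 4.19, 4.30 and 4.05 in the controls and 4.50, 4.59 and 4.32 in the labelled knockdown, so that every knockdown-labelled array was above every control array, the nearest pair by a narrow margin (4.32 against 4.30). The means were 4.18 ± 0.13 and 4.47 ± 0.14 (SD, n = 3 each), a signal 1.23-fold higher with a difference of 0.29 (95% interval −0.05 to 0.64; limma adjusted p = 0.474). Relative to the median of its bin the value was 0.39, at percentile 95.5 of the differences there. Quantile normalization gave 0.34 with an unadjusted limma p of 0.0352 (adjusted p = 0.597), and over all alternatives the value stayed between 0.23 and 0.40.

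LIFR, the LIF-binding chain (probe set 8111677, Entrez gene 3977), read 4.31, 3.51 and 3.55 in the controls and 4.07, 3.50 and 3.96 in the labelled knockdown. A single high array in the controls and a single low one in the labelled knockdown set both spreads. The difference of 0.05 (95% interval −0.44 to 0.54; limma adjusted p = 0.942) was 0.31 without control replicate 1 and −0.09 without control replicate 2. LIFR and OSMR are neighbours in the RefSeq gene order, as are IL6ST and IL31RA. The other receptors of the family, 4 of 4 measured, had a median of −0.10, which ran from −0.23 without control replicate 3 to 0.00087 without control replicate 2 and was 0.099 with array weights, with 0 past the threshold and 0 at an unadjusted p under 0.05 in limma. CNTFR, the ciliary neurotrophic factor receptor, was at −0.19, IL31RA at −0.11, IL27RA at −0.09 and the IL11 receptor gene IL11RA at 0.06. Leaving out 1 array moved each of these by more than 1.5 times and turned the sign of all but IL31RA. With array weights CNTFR, IL31RA and IL27RA turned to 0.093, 0.10 and 0.030.

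**Figure D2:**
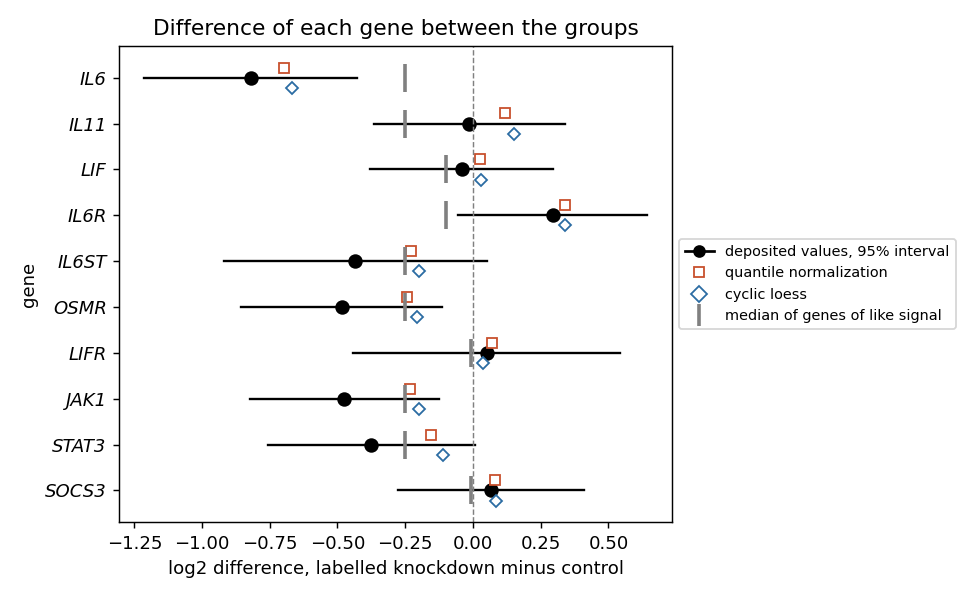
Log2 difference, labelled knockdown minus control (horizontal axis), of the 10 genes (vertical axis); black points and lines are the limma values on the deposited signals with 95% intervals, open squares the values after quantile normalization, open diamonds those after cyclic loess, and grey ticks the median of the signal bin that holds the gene. IL6 lies far below its tick (−0.82 against −0.25), IL6R above its own (0.29 against −0.10), and OSMR, JAK1, IL6ST and STAT3 move towards 0 under both normalizations.

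ADAM10 and ADAM17 encode the membrane proteases that cut IL6R from the cell surface and so yield its soluble form. Both were lower at an unadjusted p under 0.05 in limma, at −0.44 and −0.45, with adjusted p of 0.388 and 0.399. At that unadjusted p 8.38% of all genes were lower, and 22.9% of the brightest bin, which holds both. Relative to the median of this bin ADAM10 was at −0.19 and ADAM17 at −0.20. ADAM17 read 5.65, 5.13 and 5.53 in the controls and 4.67, 5.004 and 5.29 in the labelled knockdown. The groups overlapped for both genes. After quantile normalization the values were −0.20 and −0.31, and ADAM17 was at −0.29 without knockdown-labelled replicate 1.

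Of the signalling genes inside the cell, JAK1 and STAT3 read lower, neither past the threshold, while the SOCS3 groups were interleaved. JAK1, the main kinase of the receptor complex (probe set 7916747, Entrez gene 3716), read 7.07, 6.98 and 6.93 in the controls and 6.33, 6.58 and 6.66 in the labelled knockdown. The controls were close together and all lay above the other group. The means were 6.99 ± 0.07 and 6.52 ± 0.17 (SD, n = 3 each), with a difference of −0.47 (95% interval −0.82 to −0.13; limma adjusted p = 0.314). After quantile normalization the value was −0.23, and relative to the median of its bin it was −0.22.

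STAT3, the transcription factor of the pathway (probe set 8015607, Entrez gene 6774), read 8.005, 7.72 and 7.93 in the controls and 7.23, 7.55 and 7.75 in the labelled knockdown. Knockdown-labelled replicate 3 was just above control replicate 2, and knockdown-labelled replicate 1 was the lowest. The difference was −0.37 (95% interval −0.76 to 0.01; limma adjusted p = 0.419), and −0.24 without knockdown-labelled replicate 1. Quantile normalization left −0.15 and cyclic loess −0.11. SOCS3, the feedback inhibitor induced by STAT3 (probe set 8018864, Entrez gene 9021), read 3.94, 4.18 and 4.12 in the controls and 4.08, 4.28 and 4.07 in the labelled knockdown. Its values were interleaved, with a difference of 0.07 (95% interval −0.28 to 0.41; limma adjusted p = 0.884).

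**Figure D3:**
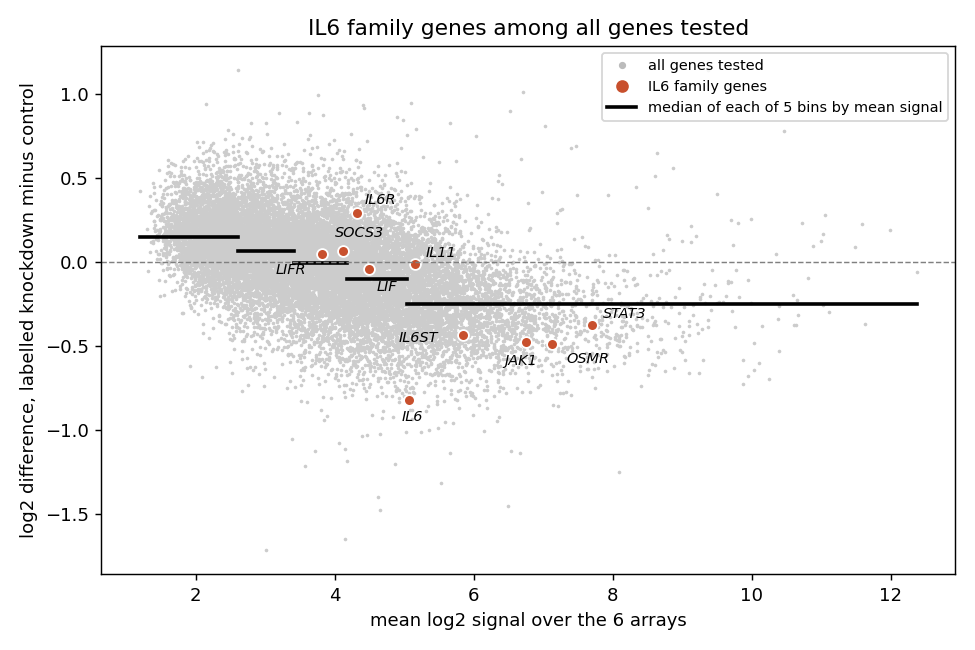
Log2 difference, labelled knockdown minus control (vertical axis), against mean log2 signal over the 6 arrays (horizontal axis) for the 18417 genes tested (grey) and the 10 IL6 family genes (red); black lines are the medians of 5 bins of genes by mean signal. The medians go from 0.15 in the dimmest bin to −0.25 in the brightest, and IL6 lies at the lower edge of the genes around it.

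The remaining JAK and STAT genes gave no call. Of 9 listed 7 were measured. Their median was −0.07, or 0.014 without control replicate 2, and neither the threshold nor an unadjusted limma p under 0.05 was met by any of the 7. STAT4, a STAT of interleukin-12 signalling, was at −0.36, STAT5B at −0.26, STAT6 at −0.18 and JAK2 at 0.13. Single arrays carried much of these values: without knockdown-labelled replicate 1 STAT4 was at −0.20 and STAT5B at −0.13, and without replicate 3 STAT6 was at −0.093 and JAK2 at 0.0014. The groups overlapped for each of these except STAT6, whose value was −0.0060 after quantile normalization and 0.022 after cyclic loess.

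Among the other brakes on JAK and STAT signalling, 14 of 14 measured, 0 passed the threshold and 4 were lower at an unadjusted p under 0.05 in limma. The median was −0.21, with 10 of the 14 below 0, and 5 were lower without overlap. Over all genes the shares were 8.38% for the unadjusted p, 51.5% below 0 and 9.82% without overlap, and 11.3%, 66.1% and 13.3% in the bin that holds 6 of the 14. PIAS1, which encodes a SUMO ligase, had the largest value. It read 7.10, 6.84 and 6.82 in the controls and 5.95, 6.37 and 6.45 in the labelled knockdown, with a difference of −0.66 (95% interval −1.05 to −0.28; limma adjusted p = 0.273) and −0.43 after quantile normalization. SOCS4 and SOCS7, relatives of SOCS3, were at −0.51 and −0.45, the former at −0.79 without knockdown-labelled replicate 3. PTPN2, a phosphatase of JAK1 and STAT proteins, went the other way, at 0.46 (limma adjusted p = 0.413), and its groups overlapped, with 0.30 left without knockdown-labelled replicate 1.

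The branch from the receptor through the phosphatase SHP2 to ERK and PI3 kinase, 9 of 13 listed genes measured, held 0 genes past the threshold and 0 at an unadjusted p under 0.05 in limma. Its median was −0.30, beside −0.25 for the brightest bin, and −0.08 once the arrays had been quantile normalized. It was −0.022 without knockdown-labelled replicate 1 and −0.16 without replicate 2, and 7 of the 9 genes lie in that bin. The kinase gene MAP2K1 was at −0.39 (−0.16 without knockdown-labelled replicate 2), SOS1 at −0.37, the adaptor gene GRB2 at −0.35 and PTPN11, which encodes SHP2, at −0.32. SOS1 and PTPN11, 2 of the 9, were lower without overlap between the groups, beside 9.82% of all genes and 23.2% of the brightest bin. Relative to the median of that bin they were at −0.12 and −0.07.

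Among 30 STAT3 target genes, all measured, 1 fell past the threshold: SAA2, an acute-phase serum amyloid A gene. It read 5.19, 4.51 and 5.19 in the controls and 3.10, 3.42 and 3.43 in the labelled knockdown, with a difference of −1.65 (95% interval −2.09 to −1.21; limma adjusted p = 0.016). SAA2 and SAA1 are nearly identical, so the source of its signal is uncertain. The probe set of SAA1, in the dimmest bin, read 2.41 in control and 2.39 in the labelled knockdown (limma adjusted p = 0.976). The SAA2 call was lost with all its probe sets averaged (−0.85, limma adjusted p = 0.137), after quantile normalization (0.0578), and after cyclic loess (0.0836). Leaving out single arrays ended it in 4 cases: replicates 1 and 3 of the controls (0.172 and 0.0982) and replicates 1 and 2 of the labelled knockdown (0.0538 and 0.14). Over all alternatives its adjusted p ran from 0.000373 to 0.172. By the unadjusted limma p, 3 of the 30 targets were lower and 2 higher, beside 8.38% and 3.78% of all genes. The brightest bin holds 13 of the 30, and 22.9% of its genes were lower by that p. The median of the list was −0.16, or −0.02 after quantile normalization. That median was −0.034 without knockdown-labelled replicate 1 and −0.084 without control replicate 1.

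The acute-phase genes of that list did not go one way. The fibrinogen chain gene FGB, named after its values were seen, read 4.05, 3.84 and 3.98 in the controls and 4.72, 5.08 and 4.83 in the labelled knockdown. Every knockdown-labelled array was above the controls, with a difference of 0.92 (95% interval 0.56 to 1.27; limma adjusted p = 0.0974). FGA, another fibrinogen chain gene, named in the same way, was at 0.60 (limma adjusted p = 0.29) without overlap, and FGG was at −0.23 with overlap. Quantile normalization gave 0.98 for FGB and 0.77 for FGA. FGB passed the threshold with the dimmer genes left out (limma adjusted p = 0.0474) and with array weights (0.00724), in a range over its alternatives up to 0.525. CRP and HP, acute-phase genes in the dimmest bin, were at 0.18 and 0.15, close to the median of 0.15 there. Among further acute-phase genes of the list, SERPINA3 was at −0.04, HAMP at −0.09, SAA1 at −0.02 and LBP at 0.22, each with overlapping groups. Apart from SAA2, FGB and FGA, the targets ran from −0.69 for the angiogenic factor VEGFA to 0.27 for the adhesion molecule ICAM1.

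**Figure D4:**
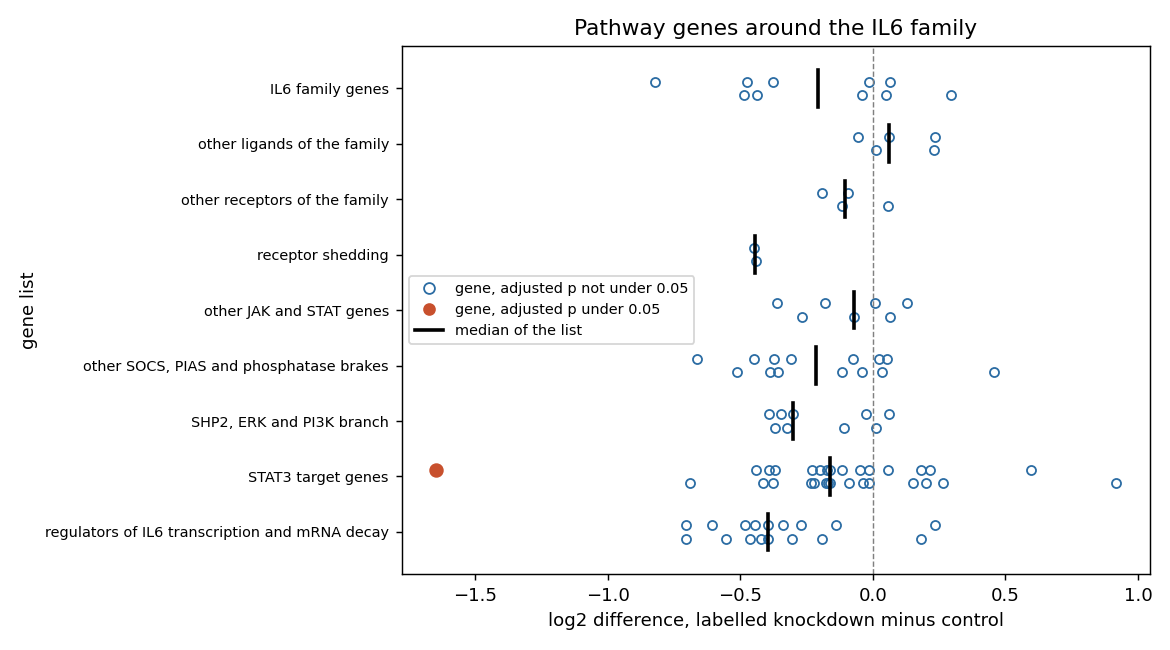
Log2 difference, labelled knockdown minus control (horizontal axis), of each measured gene in the IL6 family and 8 related lists (vertical axis); open circles are genes not past the threshold, the filled circle is SAA2, which passed it (limma adjusted p = 0.016), and black bars are list medians. The lists differ in signal: 10 of the 17 regulators of IL6 (median −0.40) and 0 of the 5 other ligands (median 0.06) lie in the brightest bin, whose median was −0.25.

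Of 17 genes that control IL6 transcription and the decay of its mRNA, all measured, 15 were below 0, and 10 of the 17 lie in the brightest bin, of which 85.3% was below 0, and 5 in the next, with 66.1%. The median of −0.40, or −0.23 once quantile normalized, stands beside −0.01 for all genes and −0.25 for the brightest bin, and was −0.22 without knockdown-labelled replicate 1. None passed the threshold. An unadjusted limma p under 0.05 on the lower side was found for 7, beside 8.38% of all genes and 22.9% of the brightest bin, and 9 were lower without overlap, beside 9.82% and 23.2%. NFKB1, the p50 subunit precursor of NF-kB, read 4.67, 4.15 and 4.37 in the controls and 3.86, 3.23 and 3.99 in the labelled knockdown, a difference of −0.70 (95% interval −1.16 to −0.24; limma adjusted p = 0.289). It lies in a bin whose median was −0.01, and quantile normalization left −0.67. NFKB2 was at −0.55 and the AP-1 gene JUN at −0.61, both without overlap. ZC3H12A, which encodes the RNase Regnase that degrades IL6 mRNA, was at −0.70 (limma adjusted p = 0.305), and at −0.45 without knockdown-labelled replicate 1. With array weights NFKB1 and NFKB2 each passed the threshold, at a limma adjusted p of 0.0488, while the highest value with 1 array left out was 0.928 for both.

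The genes whose profile over the 6 arrays was most like that of IL6 were PRPF38A, NR2C1, CXCL2, PSMB5 and REEP5. Likeness was measured as the root mean square of the difference between log2 values centred on each gene's own mean, among 9208 other genes at or above the median signal. It was 0.0694 for PRPF38A, a splicing factor, 0.0766 for the nuclear receptor NR2C1, 0.0780 for the chemokine CXCL2, 0.0783 for the proteasome subunit PSMB5 and 0.0785 for REEP5, a protein of the endoplasmic reticulum, against a median of 0.40. CXCL2 read 6.29 ± 0.23 in control and 5.49 ± 0.22 in the labelled knockdown (SD, n = 3 each). The profiles most like that of LIF, those of STEAP2, CCNJL, SAP30L, MAP1LC3A and P3H1, had differences from −0.11 to −0.01. These are descriptions over 6 arrays, on which many genes share the difference between the groups.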

How the data were processed

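RNA of 3 control and 3 knockdown-labelled samples was measured on Affymetrix arrays. The values are the authors' log2 signals of 33297 probe sets, processed by RMA (per the submitters' processing notes, with no version in the sources used here). The log2 scale was read from the values, which ran from 0.611 to 13.2. Array medians ran from 3.38 to 3.53 and SDs from 1.60 to 1.86. Arrays carry no counts, so their number limits the precision. Probe sets naming 1 gene in the platform annotation (19460) were kept, 1754 with several genes and 12083 with none were left out, and the probe set with the highest mean stood for each gene.

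Groups were taken from the titles. All 18417 genes were fitted with limma 3.58.1 (R 4.3.3; lmFit and eBayes, no covariate, 2-sided, Benjamini-Hochberg over all genes, threshold 0.05). Values after ± are SDs. Nothing says that the samples of a group came from separate lines, so p-values measure the spread between these experiments. The procedure was tested on simulated data, with each gene drawn on its own and no shift of whole arrays. Such data cannot show how often calls are false under the shift of bright genes seen here. The 10 genes and the gene lists were chosen with earlier results of these data known. Named besides the 10 genes were, per list, genes past the threshold or otherwise up to 4 with the largest difference, H2AX, and the 5 genes most like IL6 and LIF. Other genes named, FGA, FGB, FGG, CRP, HP, SERPINA3, HAMP, LBP, VEGFA, ICAM1, SAA1 and the markers, were chosen after their values were seen. No set test was run on the lists. The 15 alternatives are quantile normalization, cyclic loess (5 iterations), subtraction of array medians, only genes at or above the median signal, a replicate block, all probe sets of a gene averaged or all tested, array weights, a robust fit with a trend over signal, and leaving out each array. Figures were drawn with matplotlib 3.10.9.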

Additional observations from a re-analysis of the deposited data

How the results depend on the processing

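Over the 15 alternatives IL6 stayed between −0.96 and −0.67, OSMR between −0.60 and −0.21, JAK1 between −0.54 and −0.20, STAT3 between −0.49 and −0.11, IL6ST between −0.65 and −0.19 and IL6R between 0.23 and 0.40. The number of the 10 genes called lower was 0 except with array weights, where it was 1 (IL6), and the number called higher was 0 throughout. At an unadjusted p under 0.05 the count of lower members was 1 after quantile normalization and 1 after cyclic loess, and 2 to 5 with 1 array left out, with 5 without knockdown-labelled replicate 3. The count of higher members was 1 after quantile normalization, 1 after cyclic loess and 1 with array weights (IL6R in each). The median of the 10 genes was −0.064 after quantile normalization and −0.040 after cyclic loess. For all genes, calls lower and higher were 3 and 0 with the replicate block, 14 and 2 with dim genes left out, 0 and 0 after quantile normalization (1495 genes with an unadjusted limma p under 0.05), 0 and 0 after cyclic loess (1511), 3 and 0 with probe sets averaged, and 155 and 36 with array weights. The higher count was also 0 with array medians subtracted and with every probe set tested. With 1 array left out the lower count ran from 0 to 8 and the higher from 0 to 1: the lower count was 0 without control replicate 1 (944 genes with an unadjusted limma p under 0.05), control replicate 3 (1380), knockdown-labelled replicate 1 (1479) or replicate 2 (2296), 1 when control replicate 2 was dropped, and 8 when knockdown-labelled replicate 3 was dropped.

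The labels number the replicates but state no pairing. Same-numbered deviations from the group means correlated at −0.31, −0.02 and 0.07, and unlike-numbered ones from −0.39 to 0.37. Deviations within a group are tied to each other through its mean, so these values cannot decide whether the arrays were paired. The replicate block gave IL6 a limma adjusted p of 0.382 and changed no call among the 10 genes.

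The signs of the following genes turned under at least 1 alternative. After quantile normalization, then cyclic loess, the values were 0.12 and 0.15 for IL11, 0.025 and 0.030 for LIF, 0.019 and 0.028 for EBI3, 0.076 and 0.10 for STEAP2, 0.037 and 0.057 for CCNJL, 0.071 and 0.073 for SAP30L, and 0.019 and 0.014 for P3H1. STAT6 was at 0.022 after cyclic loess. With array weights IL11 was at 0.021, CNTFR at 0.093, IL31RA at 0.10, IL27RA at 0.030 and P3H1 at 0.023. With 1 array left out the ranges were −0.065 to 0.078 for IL11, −0.089 to 0.025 for LIF, −0.090 to 0.31 for LIFR, −0.0021 to 0.12 for SOCS3, −0.12 to 0.020 for EBI3, −0.41 to 0.010 for CNTFR, −0.21 to 0.13 for IL27RA, −0.067 to 0.13 for IL11RA, −0.073 to 0.057 for SAP30L and −0.072 to 0.040 for P3H1. The cause was not tested. These values do not show how far a signal lies above background.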
